A study of Homo sapiens with 4 samples.

Results

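MLC1, IGLL1, SPNS3 and KCNN2 are 4 protein-coding genes that untreated U937 cells express and that are at or near 0 after phorbol 12-myristate 13-acetate (PMA). They were picked for exactly that pattern, being counted in both untreated libraries and listed at or near 0 in both PMA libraries, and make up 4 of the 60662 genes in the deposited count table. Their difference between PMA and untreated cells is therefore given as a description without a test. U937 is an established human myeloid cell line from a histiocytic lymphoma, and PMA is a plant-derived ester that switches on protein kinase C. The untreated group holds 2 libraries of cells kept for 72 h without PMA and the PMA group 2 libraries of cells kept as long in 10 nM PMA, with 1 library of each from lot 1 and lot 2 of the cells. All 4 libraries share the line and its serum-containing medium, and the labels give the purpose of PMA as differentiation into macrophage-like cells. Total counts were 35739833 to 54915928 per library. Levels are given in normalised CPM, for which each count was divided by the TMM-scaled size of its library, and mean ± SD is over n = 2 libraries of a group.

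The 4 genes belong to unrelated families. MLC1 encodes a membrane protein best known from astrocytes, where it sits at cell contacts with the adhesion molecule HEPACAM, and its mutation causes a leukoencephalopathy with cysts. IGLL1 encodes part of the surrogate light chain, which pairs with VPREB1 and with the immunoglobulin heavy chain in the pre-B cell receptor. SPNS3 is the least studied of the spinster transporters, a family of membrane carriers that includes the lysosomal SPNS1 and the sphingosine phosphate exporter SPNS2. KCNN2 encodes a small-conductance potassium channel that opens when calcium binds the calmodulin attached to it.

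MLC1 had 2646 and 3450 counts in untreated lots 1 and 2, and 0 in both PMA libraries. These counts are levels of 41.8 and 79.9 CPM without PMA (60.9 ± 26.9, SD, n = 2). MLC1 was thus the most abundant of the 4 genes in CPM, and its untreated level lay above that of 80.8% of the 16451 genes tested. IGLL1 had 1853 and 1594 counts without PMA and 0 in both PMA libraries, at levels of 29.3 and 36.9 CPM in untreated lots 1 and 2. SPNS3 had 1055 and 345 counts and 0 in both PMA libraries, at 16.7 and 7.99 CPM without PMA. KCNN2, at 21.2 and 17.0 CPM without PMA from 1343 and 732 counts, was the exception with PMA, where lot 1 still had 3 counts and lot 2 had 0. For each of the 4 genes the untreated and PMA libraries did not overlap, which the choice of genes fixes. In bulk RNA, fewer cells that express a gene and less RNA per cell cannot be told apart.

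**Figure D1:**
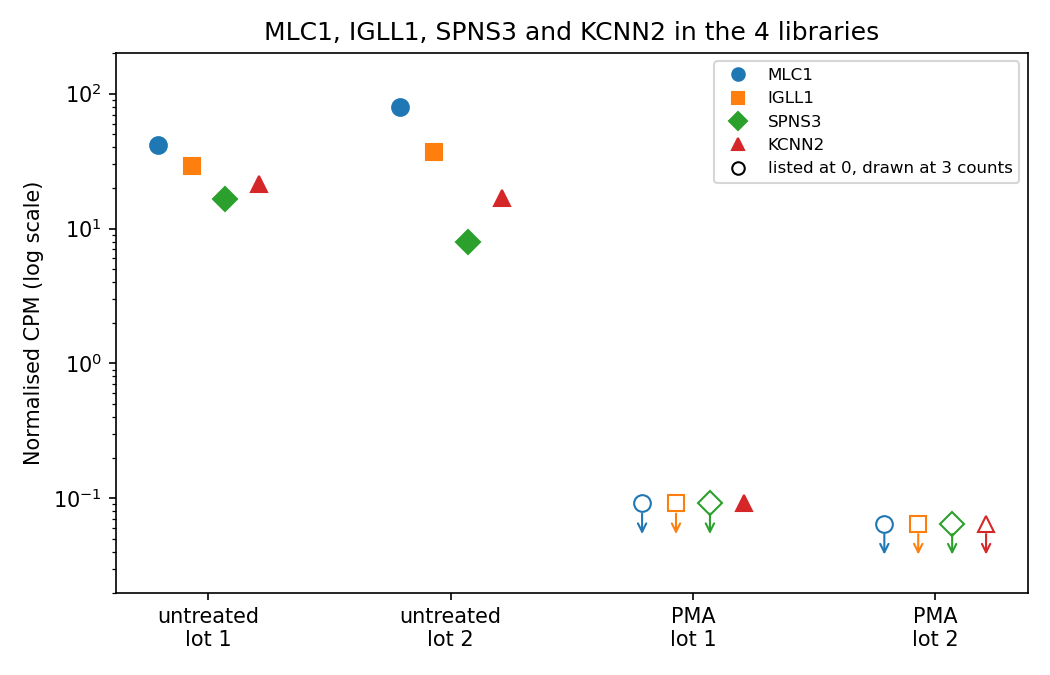
Level of MLC1, IGLL1, SPNS3 and KCNN2 in each of the 4 libraries, as normalised CPM on a log axis, with open symbols and arrows for a gene listed at 0, drawn at the level of 3 counts. Without PMA the 4 genes lie between 7.99 and 79.9 CPM, and with PMA the only counted value is that of KCNN2 in lot 1, at 0.0920 CPM.

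The limit taken for a listed 0 was 3 counts, or 0.0920 CPM in PMA lot 1 and 0.0649 CPM in PMA lot 2. It covers counting error only. Against that limit, MLC1 was at least 455-fold lower with PMA in lot 1 and at least 1232-fold lower in lot 2. IGLL1 was at least 318-fold lower in lot 1 and at least 569-fold lower in lot 2, and SPNS3 at least 181-fold lower in lot 1 and at least 123-fold lower in lot 2. These bounds follow the depth and the untreated level, so they do not rank the genes by the size of the change. KCNN2 was 231-fold lower in lot 1 by its 3 counts, with an exact 95% Clopper-Pearson interval of 78.8 to 1120 from counting alone. In lot 2 it was at least 261-fold lower.

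A 0 in this table may hide more than 3 counts. Of the 1389 genes with 20 to 39 counts in PMA lot 1, 21.8% were listed at 0 in PMA lot 2, although the median gene of that range had 35 counts there. In the other direction, 14.7% of 1205 such genes of PMA lot 2 were at 0 in PMA lot 1. At 80 to 159 counts the shares were 4.04% and 2.89%. Whether these are failed estimates of the counting program or differences between the lots was not tested. Each listed 0 was also taken to stand for 80 counts, a limit chosen after the data had been seen. The bounds over both lots would then be 29.1-fold for MLC1, 15.8-fold for IGLL1 and 5.90-fold for SPNS3. At 3 counts they were 776-fold, 422-fold and 157-fold. For KCNN2 in lot 2 the bound would be 9.80-fold, against 261-fold at 3 counts.

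**Figure D2:**
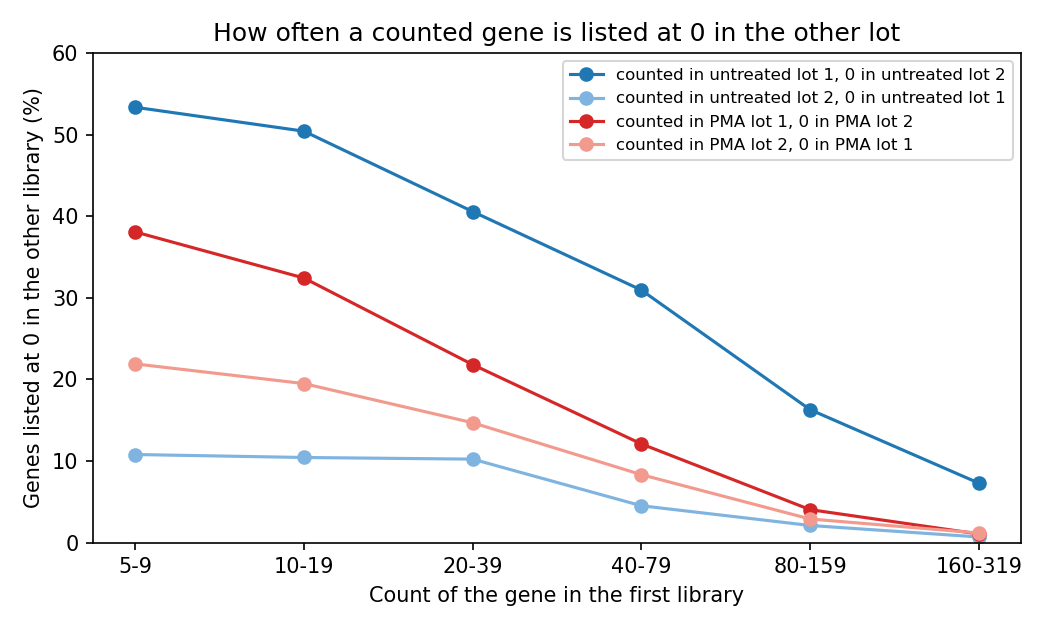
Share of genes listed at 0 in one library (vertical axis, %) among genes with a given count in the other library of the same group (horizontal axis), for both directions in each group. The share falls from 38.1% at 5 to 9 counts to 1.06% at 160 to 319 counts for genes counted in PMA lot 1, and the highest curve is that of genes counted in untreated lot 1 and 0 in untreated lot 2.

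The order of the 4 genes changed when their levels were taken per length. Per kilobase of the longest transcript in GENCODE 29, the untreated level was 36.7 ± 6.00 CPM per kb for IGLL1 (901 bases), 15.5 ± 6.85 for MLC1 (3933 bases), 5.78 ± 2.88 for SPNS3 (2133 bases) and 4.65 ± 0.735 for KCNN2 (4104 bases). The short IGLL1 transcript therefore stood first on this scale. IGLL1, at 32.5 and 41.0 CPM per kb in lots 1 and 2, did not overlap MLC1, at 10.6 and 20.3. MLC1 did not overlap SPNS3, at 7.82 and 3.75. SPNS3 and KCNN2, the latter at 5.17 and 4.13 CPM per kb, overlapped and cannot be ordered.

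In untreated cells, 2 of the genes were higher in lot 2 and the other two in lot 1. MLC1 was 1.91 times higher in lot 2 than in lot 1 (exact 95% Clopper-Pearson interval 1.82 to 2.01, counting error only), and IGLL1 was 1.26 times higher (1.18 to 1.35). SPNS3 went the other way, at 0.479 times its lot 1 level (0.423 to 0.542), and KCNN2 was at 0.799 (0.729 to 0.875). These ratios compare 1 library with 1 library and have no test of the lots. Among 8392 genes with a mean of 5 to 100 CPM and counts in both untreated libraries, the ratio ran from 0.272 to 2.70 between the 5th and 95th percentiles. All 4 genes lay inside that range, with 87.1% of these genes below MLC1, 69.3% below IGLL1, 43.4% below KCNN2 and 19.3% below SPNS3.

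The transcripts of the 4 genes share little sequence with those of other genes, which says nothing of where reads fell. None of the 50-base words of the longest MLC1 transcript occurs on either strand in the transcript of another GENCODE 29 gene, while 0.789% of those of KCNN2, 2.45% of those of SPNS3 and 9.15% of those of IGLL1 do. The words of SPNS3 and KCNN2 are shared with antisense genes that overlap them. That of SPNS3, AC127521.1, had 46 counts in untreated lot 1 and 0 elsewhere, and that of KCNN2 was at 0 in all 4 libraries. IGLL1 shares words with its relatives IGLC1, IGLL5, IGLL3P and AL022324.4, none of which had more than 5 counts in a library. It shares 17 words with each of GUSBP11 and AP000346.2. GUSBP11 had 653 and 383 counts in untreated lots 1 and 2 and 444 and 609 with PMA, where IGLL1 was at 0. AP000346.2 had 0 and 174 counts in untreated lots 1 and 2 and 2 and 17 with PMA. Whether reads of these genes were counted for IGLL1 was not tested. No source used here says whether counting used strand, so reads of SPNS3 and its antisense gene cannot be told apart.

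RefSeq start-site windows were at hand for 3 of the 4 genes (MLC1, IGLL1 and KCNN2), and 2 are shown, those of IGLL1 and MLC1, so that the motifs counted in them can be seen. Each is the 250 bases before the annotated start, on the minus strand of GRCh38.p14, with searched motifs in capitals. The first, for IGLL1, is chr22:23580291-23580540 and the second, for the more upstream of 2 starts of MLC1, is chr22:50085876-50086125.
IGLL1: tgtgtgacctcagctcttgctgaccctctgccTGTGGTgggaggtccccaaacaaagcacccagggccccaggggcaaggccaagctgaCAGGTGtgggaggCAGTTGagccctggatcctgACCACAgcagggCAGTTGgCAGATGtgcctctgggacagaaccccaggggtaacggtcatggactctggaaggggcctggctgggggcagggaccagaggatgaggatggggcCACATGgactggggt
MLC1: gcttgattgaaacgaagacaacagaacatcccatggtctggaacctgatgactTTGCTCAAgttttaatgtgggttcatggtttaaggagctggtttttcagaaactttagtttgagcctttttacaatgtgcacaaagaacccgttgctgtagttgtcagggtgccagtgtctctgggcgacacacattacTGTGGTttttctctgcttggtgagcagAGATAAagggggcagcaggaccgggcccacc

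Both strands were searched for the letters AACTG of the MYB core, TTGCNNAA of C/EBP factors, GAGGAAG of PU.1, TGTGGT of RUNX factors, AGATAA of the GATA family, CANNTG of the E-box, TATAAA of the TATA box and TGANTCA of AP-1. The IGLL1 window holds 5 E-boxes, 2 RUNX motifs and 2 MYB cores, and each MYB core overlaps an E-box by its letters. Of all 34943 RefSeq windows of this length, 61.8% hold at least 1 E-box, 34.2% a MYB core and 11.0% a RUNX motif. How many windows hold 5 E-boxes, or 2 of either other motif, is not given. The MLC1 window holds 1 RUNX, 1 C/EBP and 1 GATA motif, which 11.0%, 9.06% and 9.19% of windows hold. That of KCNN2, not shown, holds 1 E-box and 1 PU.1 motif, the latter found in 11.3% of windows. The window of the other MLC1 start, not shown, holds none of the motifs searched. Among the 3 windows described before it, no motif is in all. Part or all of each window lies in GENCODE 29 exons. That part is 18 bases for IGLL1, 27 for the MLC1 window shown, 106 for KCNN2 and all 250 for the other MLC1 window. Which motifs lie in exon bases is not given. The windows also differ in CpG content. The observed over expected CpG ratio was 0.0411 for IGLL1, below which 6.10% of windows lie. It was 0.294 for the MLC1 window shown and 0.685 for KCNN2, against a median of 0.556. These are descriptions of the letters and say nothing of binding.

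Few genes shared the pattern. Of 9455 genes at 5 CPM or more in both untreated libraries, 17 (0.18%) had at most 3 counts in both PMA libraries, and 15 of these were at 0 in both. The reverse, at 5 CPM or more in both PMA libraries and at most 3 counts in both untreated ones, held for 102 of 9685 genes (1.05%). By mean untreated level the 17 genes were led by MLC1, with IGLL1 at rank 3, KCNN2 at rank 5 and SPNS3 at rank 6. MS4A3, a membrane gene of granulocyte and monocyte progenitors, was at rank 2, with 40.6 and 36.5 CPM without PMA. The uncharacterised AL136295.4, at 16.9 and 37.7 CPM without PMA and with 1 count in PMA lot 1, was at rank 4. Below SPNS3 came the centrosomal LRRCC1 with a mean of 9.04 CPM, the serine protease PRSS12 with 8.82, ANKRD35 with 8.21 and the small GTPase RHEBL1 with 8.08. Just outside the limit lay the cell cycle factor E2F2 and the adaptor APBA2, each with 9 counts in PMA lot 1 and 0 in lot 2. The count of such genes depended on each library, at 47 without untreated lot 1, 41 without untreated lot 2, 114 without PMA lot 1 and 28 without PMA lot 2.

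**Figure D3:**
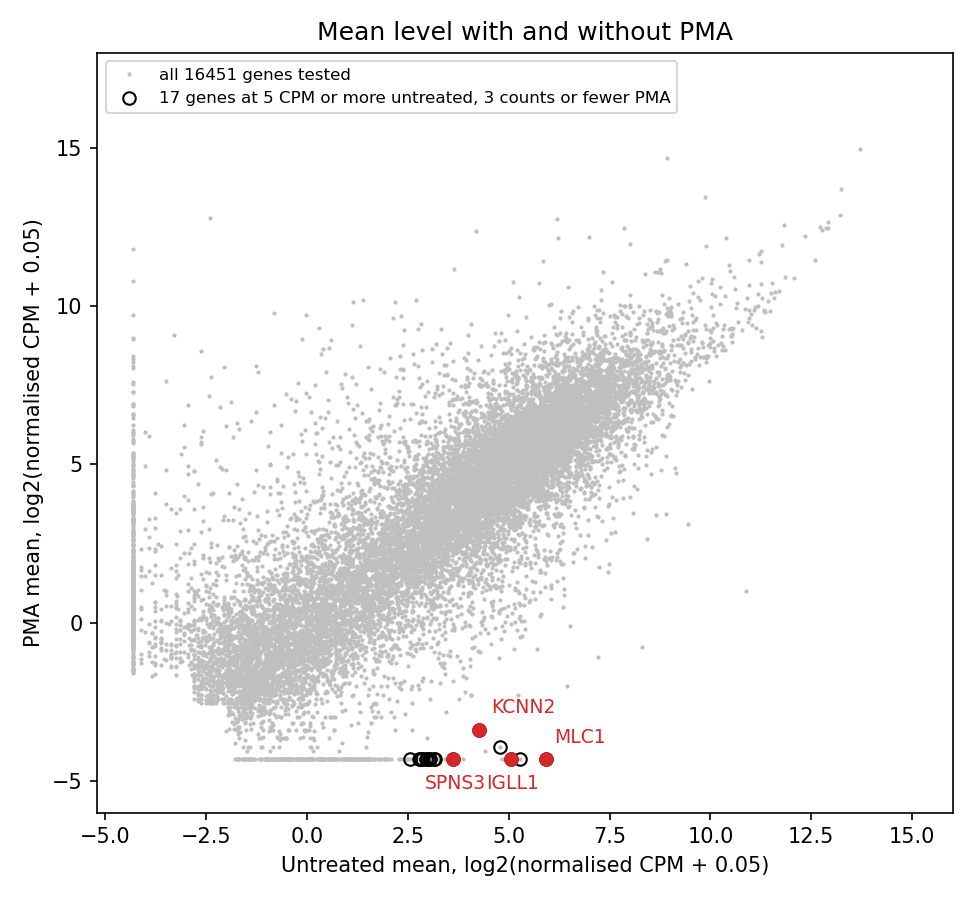
Mean level of each of the 16451 tested genes without PMA (horizontal axis) and with PMA (vertical axis), both as log2(normalised CPM + 0.05), with the 17 genes of the pattern circled and the 4 members in red. The members lie at the lower edge, where the PMA mean is 0 or, for KCNN2, 0.0460 CPM.

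Over all genes, edgeR called 332 lower with PMA (2.02%) and 705 higher (4.29%) of 16451. All 4 members passed the filter on low counts and are among the lower genes. Since this contrast picked them, that count carries no further weight. Over all genes, DESeq2 called 1684 lower and 2127 higher, and limma-voom 636 lower and 1149 higher. The share of all genes with an unadjusted p under 0.05 is not given here. List counts at that level therefore have no background to be read against.

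The genes nearest to each member in level over the 4 libraries were found by Euclidean distance of log2(CPM + 1), which ignores function. Nearest to MLC1 were the centromere gene CENPM (distance 0.854), the replication initiation factor TICRR (1.06) and MS4A3 (1.11). Nearest to IGLL1 were MS4A3 (0.458), AL136295.4 (0.760) and the replication helicase factor CDC45 (1.02). SPNS3 was nearest to E2F2 (0.429), the acyl-CoA synthetase ACSM3 (0.607) and LRRCC1 (0.662). KCNN2 was nearest to CIITA, the master regulator of MHC class II genes (0.604), the recombination factor MND1 (0.678) and the kinase MAP4K1 (0.749). These genes were not all at 0 with PMA. CENPM had 13 counts in PMA lot 1, TICRR and CDC45 had 33 each, MND1 had 22 and CIITA 10, while all 5 were at 0 in PMA lot 2. Every distance is over 4 libraries only.

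IGLL1 stood without its partners. Of 20 surrogate light chain and pre-B cell receptor genes, 6 were at 0 in all 4 libraries, namely VPREB1, VPREB3, IGLL5, IGHM, IGKC and RAG2. The heavy chain and the other surrogate light chain subunit are thus both among the genes at 0. The receptor's signalling chain CD79B had 12 counts in untreated lot 1 and 0 elsewhere, and CD79A was at 1.68 and 2.41 CPM without PMA and 2.51 and 6.87 with it. The B lineage regulator PAX5 had levels of 19.5 and 7.53 CPM without PMA, against 6.53 and 4.58 CPM with it (adjusted p = 0.288). The kinases SYK, LYN and BTK, which myeloid cells also use, were between 74.7 and 227 CPM in every library. Of the 11 genes of the list that edgeR tested, 0 rose and 0 fell. With an unadjusted p under 0.05 there were 3, DESeq2 called 1 higher and 1 lower, and limma-voom 1 higher. The cytokine receptor IL7R, at 0.0474 and 3.24 CPM untreated and 49.1 and 47.1 CPM with PMA, did not pass (log2 fold change 4.88 ± 1.69, adjusted p = 0.148). The median log2 fold change of the 11 genes tested was 0.01, and −0.16 with upper-quartile factors, against 0.00 and −0.17 over all genes.

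MLC1 was likewise expressed without some of its astrocyte partners. Of 14 genes of the complex and of related astrocyte membrane proteins, 7 were at 0 in all 4 libraries, among them HEPACAM, the water channel AQP4 and the potassium channel KCNJ10. Others were present. The chloride channel CLCN2 was at 17.9 and 28.4 CPM untreated and 14.3 and 16.7 CPM with PMA, and dystroglycan (DAG1) was between 69.0 and 110 CPM in every library. LRRC8A, a subunit of the volume-regulated anion channel, was at 22.4 and 25.3 CPM untreated and 94.3 and 72.7 CPM with PMA. The LRRC8A groups did not overlap, yet it missed the threshold (1.81 ± 0.35, adjusted p = 0.0522) and passed in 4 of 11 alternatives, between 9.07e-05 with DESeq2 and 0.373 without PMA lot 1. Of the 6 genes tested by edgeR, 0 rose and 0 fell, 1 had an unadjusted p under 0.05, and DESeq2 and limma-voom each called 1 higher and 0 lower. The median log2 fold change of these 6 genes was 0.03, and −0.14 with upper-quartile factors.

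In the spinster family, SPNS2 fell and SPNS1 did not pass the test. SPNS2, the next protein-coding gene to SPNS3 on chromosome 17, had 920 and 745 counts in untreated lots 1 and 2 and 34 and 68 with PMA. These are 14.5 and 17.3 CPM without PMA and 1.04 and 1.47 CPM with it, with no overlap between the groups. SPNS2 fell by 3.66 ± 0.55 on the log2 scale (edgeR adjusted p = 0.0341, lower in 2 of 2 lots). Unlike SPNS3 it was counted in every library. The call was lost without PMA lot 1 (log2 fold change −3.50, adjusted p = 0.117) and without PMA lot 2 (−3.91, adjusted p = 0.0976), where the lone PMA library is assumed to vary like the untreated pair, and the range over 11 alternatives was 1.04e-08 to 0.117. In the authors' deposited table SPNS2 has a log2 ratio of −3.67 with a q-value of 0.0454. SPNS1 was at 54.8 and 124 CPM without PMA and 92.8 and 149 with it (0.44 ± 0.51, adjusted p = 0.653), and its sign turned without untreated lot 1 (−0.098). Of 16 genes of spinster transport and sphingosine phosphate signalling, 12 were tested by edgeR, 1 fell (SPNS2) and 0 rose, 2 had an unadjusted p under 0.05, and the median log2 fold change was 0.09 (−0.09 with upper-quartile factors). DESeq2 called 1 higher and 1 lower and limma-voom 0 and 1. The kinase SPHK1, which makes sphingosine phosphate, had 4.19 and 4.73 CPM untreated and 7.27 and 10.5 CPM with PMA (adjusted p = 0.309). The lyase SGPL1, which degrades it, had 26.0 and 16.8 CPM untreated and 68.4 and 33.5 CPM with PMA (adjusted p = 0.204), so neither passed the test.

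The calcium-activated potassium channels showed opposite values for KCNN2 and KCNN4. KCNN4, the intermediate-conductance channel of lymphocytes, macrophages and red cells, was at 18.6 and 43.8 CPM in untreated lots 1 and 2 and at 178 and 223 CPM with PMA. Both PMA libraries lay above both untreated ones, while for KCNN2 both lay below. The log2 fold change of KCNN4 was 2.68 ± 0.52 and missed the threshold (edgeR adjusted p = 0.0516, higher in 2 of 2 lots). With the lot as a block it passed (adjusted p = 0.0421), as it did in 7 of 11 alternatives, from 2.25e-05 with DESeq2 to 0.144 without PMA lot 2. The authors' deposited table gives KCNN4 a log2 ratio of 2.68 and a q-value of 0.00808. The other small-conductance channels were scarce, with 1 count of KCNN1 in untreated lot 1 and 0 elsewhere, and KCNN3 at 0.300 and 0 CPM without PMA and 1.07 and 0.886 with it. No difference between KCNN2 and KCNN4 was tested, since KCNN2 was chosen on the contrast.

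Calmodulin is the calcium sensor of both channels. Its gene CALM2 was at 153 and 173 CPM without PMA and 355 and 303 with it (adjusted p = 0.102), and CALM3 at 163 and 331 and at 272 and 210 CPM (adjusted p = 0.969). Of the 9 genes tested in the list of 12 calcium-activated channel and calmodulin genes, edgeR called 0 in either direction. An unadjusted p under 0.05 was reached by 4, DESeq2 called 3 higher and 1 lower, and limma-voom 2 higher. Of 10 tested among 13 other potassium channel and related genes, edgeR again called 0, with 3 at an unadjusted p under 0.05, while DESeq2 called 1 higher and 2 lower and limma-voom 1 lower. The 2 with the smallest p were the GABA-B receptor accessory protein KCTD12, at 0.759 and 0.625 CPM without PMA and 13.9 and 5.38 with it (adjusted p = 0.0559), and the leak channel KCNK5, at 25.1 and 34.1 and at 8.10 and 6.96 CPM (adjusted p = 0.0617). The median log2 fold changes of these 2 lists were 0.25 and 0.27.

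**Figure D4:**
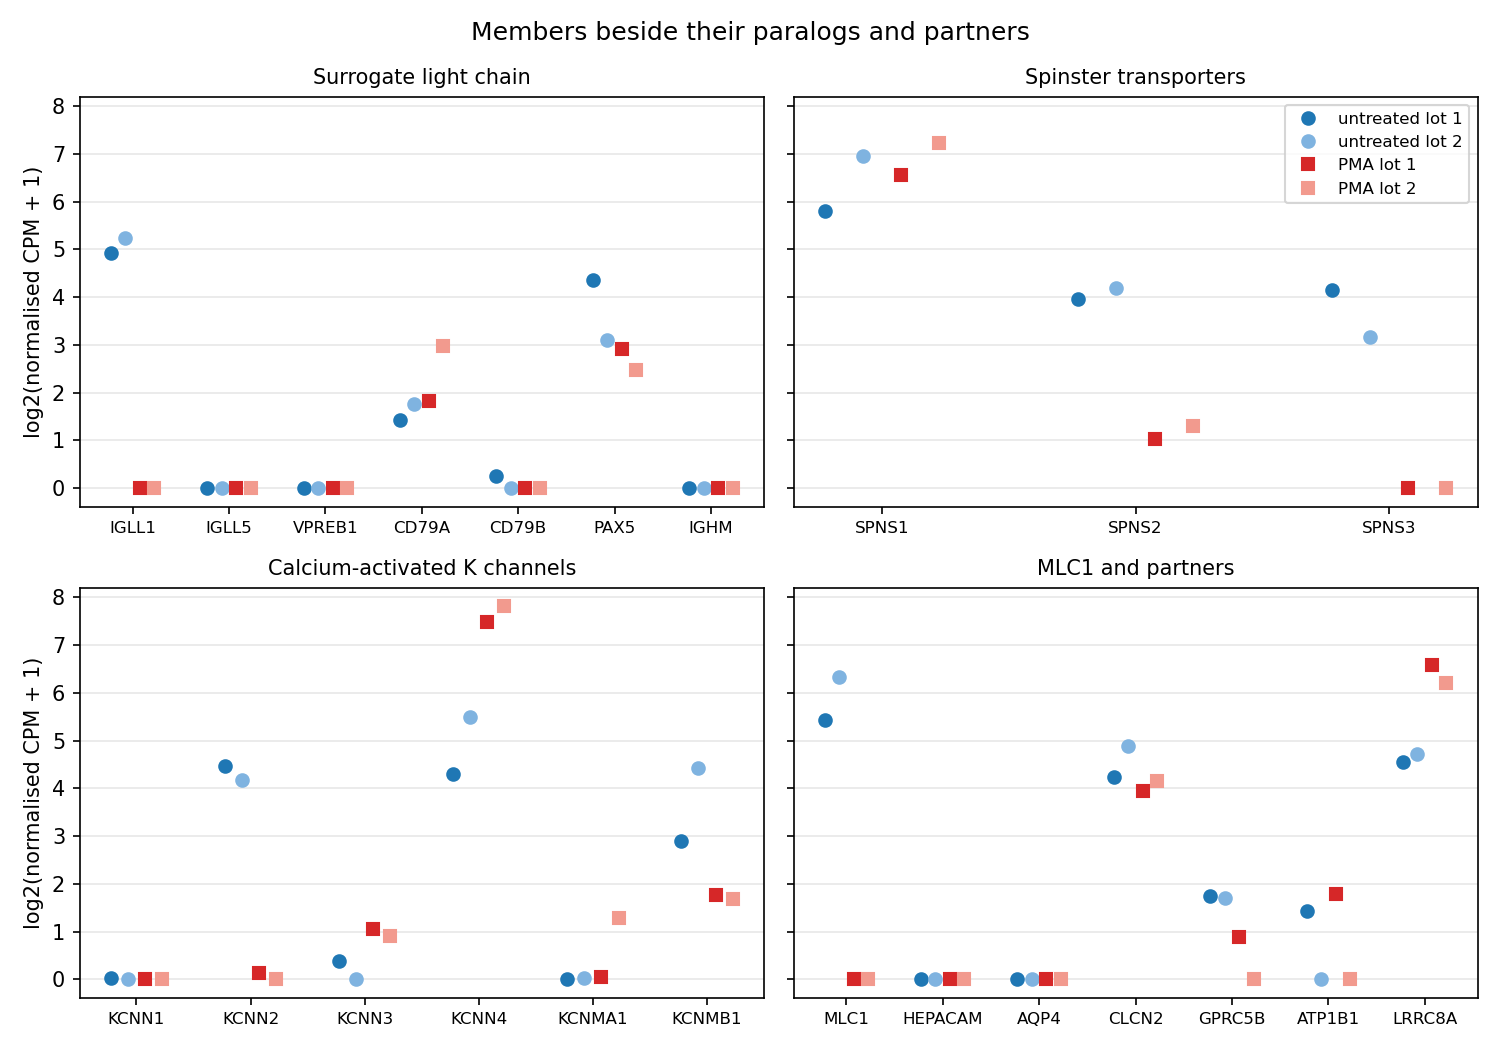
Levels of the 4 members beside paralogs and partners in each library, as log2(normalised CPM + 1), with circles for untreated and squares for PMA libraries; levels are not per length. SPNS2 is low in both PMA libraries as SPNS3 is, KCNN4 is higher in both, and IGLL5, VPREB1, IGHM, HEPACAM and AQP4 lie at 0 in all 4 libraries.

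Marrow progenitor markers were read beside the members because U937 is an immature line. Of 20 such genes with the members left out, edgeR tested 12, of which 3 fell and 0 rose. Over all genes tested, 2.02% fell and 4.29% rose. Of the 12, 7 had an unadjusted p under 0.05. The 12 had a median log2 fold change of −1.85, against 0.00 over all genes. The genes that fell were MS4A3, the microtubule regulator STMN1, at 465 and 674 CPM without PMA and 33.3 and 19.2 with it (−4.44 ± 0.47, adjusted p = 0.0224), and the transcription factor MYB, at 665 and 281 and at 16.1 and 5.64 CPM (−5.45 ± 0.80, adjusted p = 0.0323). MS4A3 shared the members' zeros, whereas STMN1 and MYB were still counted with PMA. STMN1 is also high in dividing cells of any kind. The stem cell markers CD34, SPINK2, CRHBP, AVP and PROM1 were at 0 in all 4 libraries. The cofactor MEIS1 was at 161 and 95.7 CPM without PMA and 26.0 and 34.8 with it, and did not pass (adjusted p = 0.0553).

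Genes beside the members on the chromosome did not share their zeros as a group. The 3 nearest protein-coding genes on each side of each member are 24 in RefSeq, of which 23 were matched and 15 tested by edgeR. Of the 15, 1 fell (SPNS2) and 0 rose, where 2.02% of all genes tested fell and 4.29% rose. An unadjusted p under 0.05 was reached by 6 of them, and the median log2 fold change was −0.93. DESeq2 called 2 higher and 2 lower, and limma-voom 1 higher and 1 lower. At MLC1, TRABD was at 56.1 and 109 CPM without PMA and 64.5 and 86.1 with it. PANX2, a pannexin, had 0 counts in each untreated library, 55 in PMA lot 1 and 47 in PMA lot 2 (adjusted p = 0.0632). At IGLL1, the guanine nucleotide exchange factor RGL4 had 613 and 2765 counts without PMA and 52 and 0 with it (adjusted p = 0.171). Its counts were lower with PMA in both lots, but the untreated lots differed widely. BCR, on the other side of IGLL1, was at 86.0 and 69.5 CPM without PMA and 34.6 and 33.7 with it (−1.19 ± 0.34, adjusted p = 0.0977). At KCNN2, PGGT1B was at 11.0 and 8.50 CPM untreated and 12.3 and 8.84 CPM with PMA.

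Markers of the cell types from which the members are best known were low or at 0. Of 10 astrocyte and neuron markers, 7 were at 0 in all 4 libraries, and their sum was 21.6 and 5.65 CPM without PMA and 33.6 and 20.4 with it, nearly all from the glutamate transporter SLC1A3. GFAP had 3 counts in untreated lot 1 and 0 elsewhere. Of 10 B cell markers, MS4A1, IGHM, IGKC and POU2AF1 were at 0 in all 4 libraries, and the sum was 29.1 and 17.8 CPM without PMA and 19.1 and 19.2 with it. Of 10 T cell and erythroid markers 8 were at 0 throughout, and the sum was 3.22 and 8.13 CPM without PMA and 8.25 and 26.3 with it, most of the latter from the T cell receptor constant gene TRAC. All 10 myeloid markers were counted in every library, among them SPI1 at 126 to 342 CPM and CD33 at 62.2 to 72.7 CPM. Of the myeloid markers 1 rose, the integrin subunit ITGB2 (3.59 ± 0.28, adjusted p = 0.0161). A fit that blocks on lot called 2 higher, the other being the adaptor TYROBP (adjusted p = 0.0425 against 0.0704 without the block), while DESeq2 called 3 higher and limma-voom 2.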

How the data were processed

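U937 libraries, 2 untreated and 2 with PMA, were made from poly(A) RNA with an Ion Total RNA-Seq kit, per the labels' protocols. Per the submitters' processing notes, HISAT2 2.1.0 and StringTie 2.1.1 were used, with no roles given. No source used here gives the build, annotation or counting program, or says whether strand was used. The deposited table holds estimated counts per gene, whole numbers not scaled between libraries. A second table deposited by the authors holds a signal (the count times 1 factor per library), log2 ratios, p-values and q-values, and ranks with calls.

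Counts were tested with edgeR 4.0.16 in R 4.3.3 (TMM factors, filterByExpr, quasi-likelihood test, Benjamini-Hochberg adjustment at 0.05, no block), which left 16451 genes. Errors beside log2 fold changes are standard errors. Limma 3.58.1 and DESeq2 1.42.0 were alternatives, and the test was tested on simulated data. Lot numbers in the titles pair the libraries, and the correlation across genes of their deviations within a lot was 0.154. The labels do not say how the lots differ, so a p-value reflects only how far these 4 libraries spread, and that spread may be technical. The members and lists were chosen with earlier results of these data known. Named genes are the members, their paralogs, the 3 nearest in level, the 3 neighbours on each side, the leading genes of the pattern, and up to 3 per list by p. Not all of them are printed, some results are not reported here, and genes named for their role alone were chosen after their values were seen. All 10 lists were matched by symbol. Lengths came from GENCODE 29, windows and gene order from RefSeq on GRCh38.p14.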

Additional observations from a re-analysis of the deposited data

How the results depend on the processing

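The untreated levels of the 4 members moved by less than 1 SD with RLE factors, upper-quartile factors and unscaled library sizes. Without either untreated library the level is that of the other one, for SPNS3 7.99 or 16.7 CPM against a mean of 12.3. The genes of the pattern numbered 17, 15 if both PMA libraries had to be at 0, 21 with unscaled library sizes, 112 from 1 CPM, and 28 to 114 without 1 library. Over all genes, 721, 1684 and 636 were lower at 5 CPM in 2 libraries, with DESeq2 and with limma-voom, and 79 to 1085 without 1 library. Higher were 2127 with DESeq2, 1149 with limma-voom and 424 to 1830 without 1 library. With the lot as a replicate block 244 were lower and 591 higher. Of 60 tested genes in the 6 related lists, 4 fell and 0 rose, where 2.02% of all genes tested fell and 4.29% rose. Of the 4, 3 came from the marrow progenitor list, and the other was SPNS2. Lower were 7 at 5 CPM, 10 with DESeq2 and 5 to 8 without 1 library. Higher were 1 without a filter, 3 at 5 CPM, 7 with DESeq2, 4 with limma-voom, 1 with the block (KCNN4) and 0 to 5 without 1 library. Log2 fold changes turned sign with upper-quartile factors for PGGT1B (−0.046) and UBE2G1 (−0.0089). Without 1 library they ran from −0.20 to 0.35 for PGGT1B, −0.070 to 0.35 for UBE2G1, −0.098 to 1.14 for SPNS1, −0.59 to 0.42 for TRABD and −2.12 to 0.71 for TRIM36. None of these genes was called, and the cause was not tested. Over 111 tested genes of the lists, neighbours and patterns, the members left out, the block ended 8 calls, of CENPM (adjusted p = 0.0581) and the 7 pattern genes below rank 10, and added 3, of KCNN4, TYROBP and AC004080.3. The bounds of MLC1, IGLL1 and SPNS3, and that of KCNN2 in lot 2, rest on the count a listed 0 is taken to hide.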

Other observations

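The other 7 genes of the pattern, named after their values were seen, were at 0 in both PMA libraries and had means of 5.83 to 7.78 CPM without PMA. Of these, SYCE2, a protein of the synaptonemal complex, was at 10.1 and 5.42 CPM in untreated lots 1 and 2, and SMC1B, a cohesin subunit of meiosis, at 8.44 and 5.37 CPM. Both are known for their roles in germ cells. The exchange factor ARHGEF28 was at 7.85 and 6.60 CPM, the membrane protein PRRG4 at 8.03 and 7.23 CPM and the matrix protein VIT at 6.19 and 5.47 CPM. The noncoding RNAs MROCKI, at 6.99 and 6.72 CPM, and AC112128.1, at 8.63 and 5.63 CPM, complete the 7.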
